A study of Homo sapiens with 4 samples.

Results

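The regions described here are 486 places in the genome where a HuR peak scored at least 3 times as high after 5 Gy as at 0 Gy. They were chosen by their measured scores in 2 peak lists from the human skin fibroblast line WS1, a list of 36216 peaks at 5 Gy and a list of 47930 peaks at 0 Gy. A peak of each list had to overlap by at least 1 bp, neither peak could overlap any other peak of the opposite list, and both scores had to be under 3000, which leaves out the large tie at 3100. Of 19750 pairs of peaks lying only against each other, 17346 met the score limit and are called eligible pairs. The 486 pairs with a 5 Gy over 0 Gy score ratio of 3 or more are called gained pairs, and the 1801 with a ratio of 1/3 or less are called lost pairs.

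The groups were WS1 cells given 5 Gy of X-rays and WS1 cells given 0 Gy. Both doses had 1 HuR library and 1 library from control immunoglobulin (IgG), 4 libraries in all, and each list was called on the HuR library over the IgG library of the same dose. The labels state neither the time from irradiation to harvest nor the antibody. There was no replicate, so the values below describe these libraries, no test between doses was made, and intervals cover counting error only.

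HuR, the product of ELAVL1, is an RNA-binding protein that recognises U-rich and AU-rich stretches, often in introns and in 3′ untranslated regions. It shuttles between nucleus and cytoplasm and is known for stabilising short-lived mRNAs, including those of stress and growth genes, and for taking part in splicing. After DNA damage HuR can be phosphorylated, which is known to alter its place in the cell and its binding. A RIP peak reports RNA recovered with the protein. In these lists a change in the amount of a transcript and a change in its binding by HuR cannot be told apart. Each score was also taken over the IgG library of the same dose, so it depends on that library as well. How far a difference between the IgG libraries contributes to the score ratios was not tested.

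The coordinates are those of hg19, with the start counted from 1. Genes, exon or intron classes, strand and the sequence under the peaks were not analysed here, since no hg19 genome or annotation was used, and regions are named by position. The score is the authors' deposited peak score. It begins at 60, has the form of −10 log10 of a p-value, and grows with read depth, which is unknown for all 4 libraries.

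Pairs with a much higher score after irradiation were the smaller tail of the distribution. Gained pairs made up 2.80% of the eligible pairs (95% Wilson interval 2.57 to 3.06), while lost pairs made up 10.4%, which gives 0.27 gained pairs per lost pair (interval 0.244 to 0.298). The median score ratio over all eligible pairs was 0.80 (interval 0.792 to 0.809), and 36.1% of them (6263) had a ratio above 1. Dividing the 5 Gy scores by that median gave 899 gained and 1007 lost pairs, or 0.893 gained per lost pair, so the balance of the tails rests on how the lists are scaled. The division sets the median ratio to 1, which in itself brings the tails closer in size. It is no measure of read depth.

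Gained pairs had a median score of 390.0 at 5 Gy (95% interval of the median 362 to 420) and 93.4 at 0 Gy (interval 87.2 to 98.0). Both values follow from the selection and are given as a description. In the 5 Gy list the median gained peak stood at percentile 75.2 (lowest 57.9), and in the 0 Gy list at percentile 32.2 (highest 85.8). All gained pairs lay in the upper part of the 5 Gy list and most in the lower part of the 0 Gy list, which follows in part from the rule. A total of 105 scored under 70 at 0 Gy, close to the authors' threshold, and 47 scored at least 1000 at 5 Gy. The ratio was under 4 in 292 pairs, at least 5 in 81 and at least 10 in 4.

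The share of gained pairs was lower at higher 0 Gy scores, which the rule in part fixes. The 0 Gy score is the denominator of the ratio, scores begin at 60, and both had to be under 3000. The median ratio of eligible pairs was 1.46 at 0 Gy scores from 60 to under 70 and 0.597 from 250 to under 500. Among eligible pairs with a 0 Gy score from 60 to under 70, 10.3% were gained (105 of 1020). From 100 to under 150 the share was 4.15% (113 of 2722), and from 500 to under 1000 it was 0.288% (7 of 2434). Above 1000 no pair could reach the ratio without passing the limit of 3000. Just inside it, the peak on chromosome 17 at 60139967 to 60140710 scored 283.33 at 5 Gy and 94.43 at 0 Gy. The next inside were chromosome 2 at 128861605 to 128862705, with 184.19 at 5 Gy and 61.38 at 0 Gy, and chromosome 1 at 40344640 to 40345863, with 241.11 at 5 Gy and 80.24 at 0 Gy. Just outside it, the peak on chromosome 20 at 25676722 to 25677451 scored 227.06 at 5 Gy and 75.69 at 0 Gy. The next outside were chromosome 5 at 145612974 to 145613390, with 519.78 at 5 Gy and 173.38 at 0 Gy, and chromosome 3 at 93776985 to 93778892, with 181.22 at 5 Gy and 60.47 at 0 Gy.

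**Figure D1:**
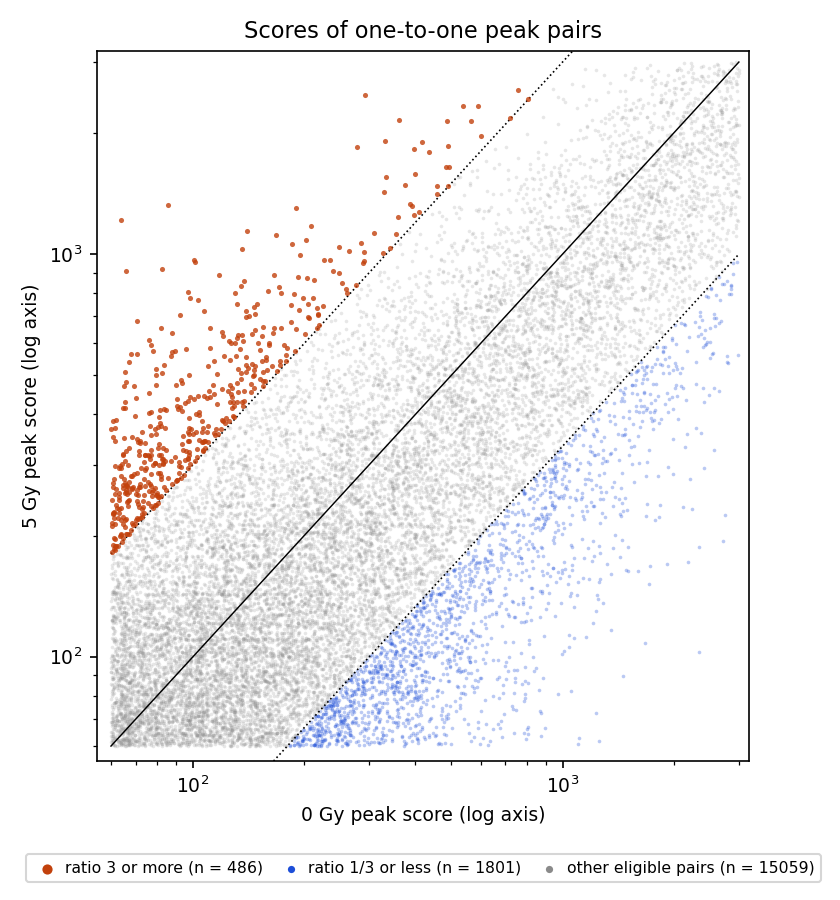
Scores of the 17346 eligible pairs, with the 0 Gy score on the horizontal and the 5 Gy score on the vertical axis, both logarithmic. Each point is a pair, the solid line marks equal scores and the dotted lines ratios of 3 and 1/3. The 486 gained pairs crowd at low 0 Gy scores, with a median of 93.4, and the 1801 lost pairs start at a 0 Gy score of 183. Scores begin at the authors' threshold, so a ratio of 1/3 or less keeps lost pairs out of the low 0 Gy scores. That start is set by the rule, and the contrast with gained pairs follows in part from it.

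The pair with the largest ratio lay on chromosome 12 (76653700 to 76655738 at 5 Gy), with a score of 1216.01 at 5 Gy and 63.99 at 0 Gy, a ratio of 19.0. Its 5 Gy peak was 2039 bp long and its 0 Gy peak 302 bp. No other eligible pair lay within 10 kb, but 3 further 5 Gy peaks without any 0 Gy counterpart did. At 0 Gy the region thus held a single short peak near the threshold, and at 5 Gy it held 4 peaks.

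The second ratio, 15.4, was that of chromosome 17 from 4935787 to 4937673, with 1324.01 at 5 Gy and 85.83 at 0 Gy. The next pair along, from 4938129 to 4938767, was gained as well, with 1143.20 at 5 Gy and 139.99 at 0 Gy. The first of these peaks covered 1887 bp at 5 Gy and 524 bp at 0 Gy. The second had nearly the same extent at both doses, with 639 bp at 5 Gy and 634 bp at 0 Gy. These neighbours had a large difference in score in common but differed in shape.

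The next 2 ratios belonged to peaks that were shorter at 5 Gy. On chromosome 10 (126673196 to 126675811), the score was 910.57 at 5 Gy over 2616 bp and 65.72 at 0 Gy over 5114 bp, a ratio of 13.9. On chromosome 19 (16212064 to 16213850), the score was 917.24 at 5 Gy over 1787 bp and 82.58 at 0 Gy over 1951 bp, a ratio of 11.1. In each case the only other eligible pair within 10 kb had a ratio below 1, at 0.708 on chromosome 10 and 0.732 on chromosome 19. At both places the higher 5 Gy score was seen at 1 of 2 eligible pairs.

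Below these came chromosome 7 from 66361645 to 66363133, where the 5 Gy score was 680.91 and the 0 Gy score 70.37. This pair stood alone, with no other peak of either list within 10 kb. Chromosome 15 from 39879508 to 39879747 scored 969.39 at 5 Gy and 100.58 at 0 Gy. It was a narrow peak of 240 bp at 5 Gy and 220 bp at 0 Gy, and 7 of the 8 other eligible pairs within 10 kb also had ratios above 1. A second gained pair lay in that stretch, from 39873237 to 39873470, with 573.09 at 5 Gy and 189.21 at 0 Gy. Chromosome 1 from 27720282 to 27722345 scored 805.59 at 5 Gy and 96.78 at 0 Gy, and no other peak of either list lay within 10 kb. Chromosome 9 from 114244179 to 114245771 scored 563.94 at 5 Gy and 67.95 at 0 Gy, with 4 unmatched 5 Gy peaks and 2 unmatched 0 Gy peaks around it. Of the 10 largest ratios, 7 had the longer peak at 5 Gy and 5 had another eligible pair within 10 kb.

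The highest 5 Gy scores among gained pairs were found on peaks that were already clear at 0 Gy. Chromosome 3 from 10283791 to 10285410 led, with 2563.58 at 5 Gy and 755.69 at 0 Gy over nearly identical lengths of 1620 bp at 5 Gy and 1582 bp at 0 Gy. Chromosome 12 from 121124680 to 121125493 followed, with 2479.04 at 5 Gy over 814 bp and 292.44 at 0 Gy over 1809 bp. This 5 Gy peak began within 36 bp of the left end of the 0 Gy peak and stopped 1031 bp short of its right end. Its score was 8.48 times as high, while the other 2 eligible pairs within 10 kb had a median ratio of 0.355.

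The pair with the highest 0 Gy score lay on chromosome 12 from 69222086 to 69223007, with 2426.46 at 5 Gy and 805.85 at 0 Gy. It only just met the rule, at a ratio of 3.01, and both other eligible pairs within 10 kb also scored higher at 5 Gy, with a median ratio of 1.52. On chromosome 11, the peak from 69455801 to 69456703 scored 2176.11 at 5 Gy and 720.60 at 0 Gy, and the 1 other eligible pair nearby had a ratio of 1.57. Chromosome 14 from 23305621 to 23306384 scored 2326.73 at 5 Gy and 538.78 at 0 Gy, with ratios above 1 in 4 of 5 neighbouring pairs. At these 3 places most or all of the measured neighbours had a higher score at 5 Gy, as the gained peak did.

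Other high scorers had neighbours with lower, mixed or no ratios. Chromosome 6 from 150139799 to 150142125 scored 2333.06 at 5 Gy over 2327 bp and 589.14 at 0 Gy over 5460 bp, and its neighbour had a ratio of 0.946. On chromosome 22, a peak from 29668246 to 29674423 scored 2146.54 at 5 Gy and 486.40 at 0 Gy, while the 3 other eligible pairs within 10 kb had a median ratio of 0.591. Chromosome 1 from 32653328 to 32653870 scored 2144.18 at 5 Gy and 567.03 at 0 Gy, and 3 of its 5 neighbours lay above 1. Chromosome 11 from 14299328 to 14303023 scored 1963.95 at 5 Gy and 600.74 at 0 Gy, with no other eligible pair within 10 kb.

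A few long peaks scored higher at 5 Gy over almost the same extent. The longest 5 Gy peak of the set, 6783 bp on chromosome 12 (24964259 to 24971041), scored 2149.67 at 5 Gy and 361.54 at 0 Gy, where it covered 6726 bp. It stood alone, and its ends moved by 14 and 43 bp. Chromosome 3 from 179113869 to 179119157 scored 1043.65 at 5 Gy over 5289 bp and 247.70 at 0 Gy over 5269 bp. On chromosome X (70275803 to 70281183), by contrast, a 5381 bp peak with 565.85 at 5 Gy met a 2170 bp peak with 70.65 at 0 Gy that was offset by 1127 bp to the left. On chromosome 3 (160117285 to 160122403), a 5119 bp peak with 819.30 at 5 Gy covered a 1549 bp peak with 259.72 at 0 Gy and reached 3506 bp further to the left. Of the 486 gained pairs, 8 (1.65%) had a 5 Gy peak of 4 kb or more with an interval of 0.836 to 3.21, against 1.40% of all eligible pairs.

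Gained pairs were usually longer at 5 Gy, though not always. The 5 Gy peak was the longer in 379 gained pairs (78.0%, interval 74.1 to 81.4), against 58.2% of all eligible pairs and 44.7% of lost pairs. Gained pairs had a median length of 830 bp at 5 Gy, against 418.5 bp at 0 Gy, with a median length ratio of 1.26 (interval 1.21 to 1.39) against 1.04 over all eligible pairs. In 155 gained pairs (31.9%, interval 27.9 to 36.2) the 5 Gy peak was at least 2 times as long, against 6.36% of all eligible pairs. A further 116 gained pairs (23.9%) had lengths within 10% of each other, against 31.1% of all eligible pairs. Length comes from the same contrast as the rule, so these shares describe the set and are not a test.

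**Figure D2:**
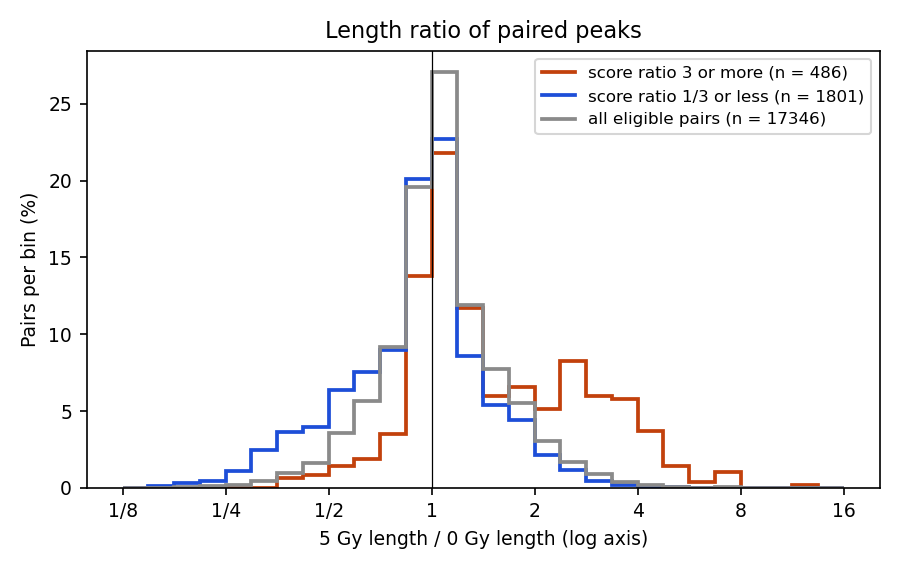
Share of pairs in each bin of the 5 Gy over 0 Gy length ratio, on a logarithmic axis, for gained, lost and all eligible pairs. All 3 curves peak near 1; the gained pairs have an added shoulder between ratios of 2 and 5, and 31.9% of them lie at 2 or more against 6.36% of all eligible pairs.

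The lengthened gained pairs scored lower at both doses than those of like length, with overlapping intervals of the median ratio. Pairs at least 2 times as long at 5 Gy had median scores of 316 at 5 Gy and 74.4 at 0 Gy, with median lengths of 1210 bp at 5 Gy and 358 bp at 0 Gy. Pairs of like length had median scores of 499 at 5 Gy and 128 at 0 Gy, with median lengths of 726 bp at 5 Gy and 743 bp at 0 Gy. The median score ratio was 3.75 in the lengthened pairs (interval 3.64 to 4.05) and 3.72 in those of like length (interval 3.51 to 3.95). Over all 17346 eligible pairs, score ratio and length ratio had a Spearman rho of 0.293. Both peaks of a pair come from the same libraries, and pairs are not replicates.

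Most of the lengthened gained pairs had low 0 Gy scores, from 60 to under 150, a range that held 382 of the 486 gained pairs. It held 146 of the 155 gained pairs at least 2 times as long at 5 Gy. The range also held 117 of the 130 that reached more than 50 bp beyond both ends, and 312 of the 379 with the longer peak at 5 Gy. The shares of lengthened pairs given for the whole set thus come mostly from 0 Gy peaks of low score. Among eligible pairs with a 0 Gy score from 60 to under 150, the 382 gained pairs had a median length ratio of 1.47 (interval 1.30 to 1.75) and the 5505 others 1.14 (interval 1.13 to 1.15). In this range, 38.2% of gained pairs (interval 33.5 to 43.2) were at least 2 times as long at 5 Gy, against 9.94% of the others (interval 9.17 to 10.8). The 0 Gy peaks of the gained pairs had a median of 380.5 bp and those of the others 394 bp.

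The 5 Gy peak most often enclosed the 0 Gy peak. The 0 Gy peak lay wholly inside the 5 Gy peak in 266 gained pairs (54.7%, interval 50.3 to 59.1), against 32.2% of all eligible pairs. Counting only changes of more than 50 bp, the 5 Gy peak reached beyond both ends in 130 gained pairs (26.7%) and 8.37% of all eligible pairs. It reached beyond 1 end, with the other end within 50 bp, in 24.5% of gained pairs and 24.3% of all eligible pairs. Both ends agreed within 50 bp in 24.3% of gained pairs and 24.8% of all. Of these 3 classes of peak ends, the share past both ends differed most between the sets.

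Some 5 Gy peaks were many times as long as their 0 Gy counterparts. Chromosome 17 from 45387498 to 45391147 covered 3650 bp at 5 Gy and 304 bp at 0 Gy, with scores of 575.22 at 5 Gy and 89.19 at 0 Gy. Chromosome 1 from 71869639 to 71873250 covered 3612 bp at 5 Gy and 457 bp at 0 Gy, with scores of 582.20 at 5 Gy and 95.78 at 0 Gy. The 5 Gy peak extended 1501 bp further on the left and 1654 bp on the right. Chromosome 9 from 136929529 to 136932766 covered 3238 bp at 5 Gy and 418 bp at 0 Gy, with scores of 649.12 at 5 Gy and 147.20 at 0 Gy, and the extra length, 2839 bp, lay on the right. Chromosome 10 from 69852563 to 69855055 covered 2493 bp at 5 Gy and 334 bp at 0 Gy, with scores of 538.48 at 5 Gy and 67.01 at 0 Gy. Each of these 4 peaks at 5 Gy was the only one of its list within 10 kb. On chromosome 2 (122492311 to 122494501), a 2191 bp peak at 5 Gy stood over a 323 bp peak at 0 Gy, with 227.28 at 5 Gy and 60.78 at 0 Gy, and 1 other 5 Gy peak lay within 10 kb.

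In a smaller part of the gained pairs the higher score went with a shorter peak. The 0 Gy peak was the longer in 107 gained pairs (22.0%), and at least 2 times as long in 7 (1.44%, interval 0.699 to 2.94), against 3.41% of all eligible pairs. The most marked case lay on chromosome 17 from 42267631 to 42269091, with 1461 bp and a score of 1059.36 at 5 Gy against 4005 bp and 185.61 at 0 Gy. On chromosome X from 54473025 to 54474523, the 5 Gy peak of 1499 bp scored 477.75 and the 0 Gy peak of 3823 bp scored 93.12. Chromosome 3 from 45869914 to 45870113 was a 200 bp peak with 266.63 at 5 Gy and a 545 bp peak with 65.81 at 0 Gy.

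Gained pairs were scattered along the genome, mostly 1 to a place. When gained pairs within 10 kb of each other were joined they formed 471 groups, of which 458 held a single pair, 11 held 2 and 2 held 3. Another gained pair lay within 10 kb of 28 gained pairs (5.76%, interval 4.02 to 8.20), against 3.99% for any eligible pair (interval 3.71 to 4.30). For lost pairs the corresponding share, another lost pair within 10 kb, was 17.5%, against 14.2% for any eligible pair. The shares of gained and lost pairs are not comparable in size, since there were fewer gained pairs to meet.

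At the main settings, peaks next to a gained pair had a median score ratio below 1 but above that of eligible pairs in general. The 693 eligible pairs within 10 kb of a gained pair had a median score ratio of 0.893 (interval 0.850 to 0.947), above the 0.793 of eligible pairs with any eligible neighbour within 10 kb (interval 0.781 to 0.804) and still below 1. Around lost pairs the median was 0.691 (interval 0.669 to 0.718). Of the 693, 42.9% had a ratio above 1, against 35.5% with any eligible neighbour and 28.7% around lost pairs. Leaving out neighbours that were themselves gained or lost, the medians were 0.926 near gained pairs, 0.768 near lost pairs and 0.847 near any eligible pair. The median around gained pairs was 1.102 when only ratios of 5 or more counted as gained (interval 0.939 to 1.28). It was 0.999 within 2 kb (interval 0.918 to 1.12) and 0.876 within 50 kb. With at least 50% of each peak overlapped it was 0.852 (interval 0.790 to 0.907). Its side of 1 thus depends on these choices and on the scaling of the lists. The median was 1.11 when every overlapping couple was counted, but couples of the same peak then count as neighbours and share a score. The median around any eligible pair was not recomputed under these settings. Neighbouring peaks come from the same libraries and are no independent measure.

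The median ratio of the neighbours was highest at the shortest distance. Within 1 kb of a gained pair the median ratio of the 144 other eligible pairs was 1.03 (interval 0.916 to 1.28). From 5 to under 10 kb it was 0.824 (interval 0.749 to 0.907, 260 pairs), from 10 to under 20 kb 0.904 (interval 0.809 to 0.970, 344 pairs), from 20 to under 50 kb 0.850 (interval 0.815 to 0.909, 715 pairs), and from 50 to under 100 kb it was 0.8001 (interval 0.760 to 0.868, 660 pairs). Around lost pairs the median was 0.686 within 1 kb and 0.811 from 50 to under 100 kb. Among the 302 gained pairs with another eligible pair within 10 kb, the median ratio of those neighbours was above 1 for 129, under 1 for 173, and at least 3 for 10. The same counts were not made for lost pairs or for all eligible pairs, so these describe the gained pairs only.

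**Figure D3:**
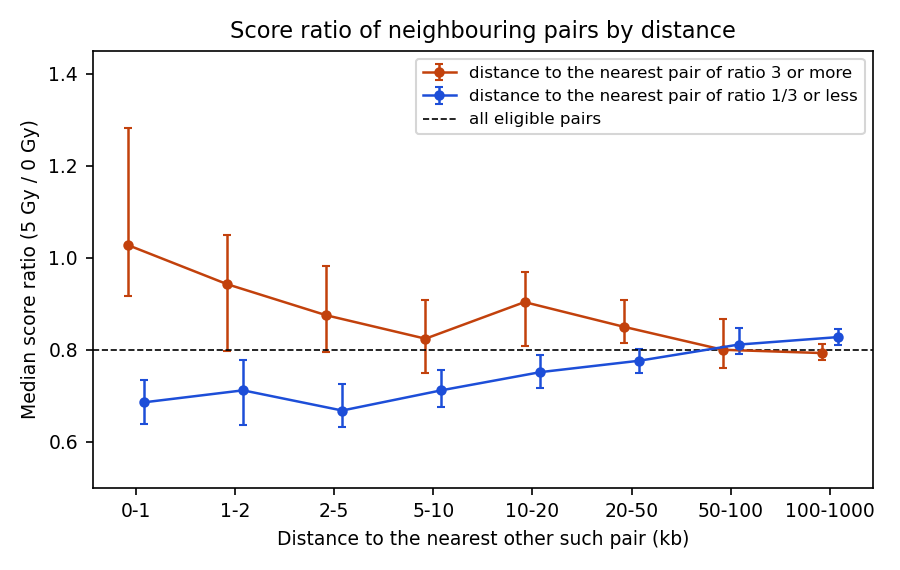
Median 5 Gy over 0 Gy score ratio of eligible pairs, by distance in kb to the nearest other gained pair and to the nearest other lost pair; bars are 95% intervals of the median and the dashed line is the median of all eligible pairs, 0.80. Near gained pairs the median is 1.03 within 1 kb, 0.824 from 5 to 10 kb and 0.904 from 10 to 20 kb, and meets the dashed line from 50 kb; near lost pairs it starts at 0.686.

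Unmatched peaks, those that overlap nothing in the other list, were more often 5 Gy peaks near gained pairs than near lost pairs. An unmatched 5 Gy peak lay within 10 kb of 48.1% of gained pairs (234 of 486, interval 43.7 to 52.6), against 31.1% of lost pairs and 39.1% of all eligible pairs. An unmatched 0 Gy peak lay within 10 kb of 47.9% of gained pairs (interval 43.5 to 52.4), against 58.9% of lost pairs and 58.0% of all eligible pairs. Gained pairs had on average 0.862 unmatched 5 Gy peaks and 1.02 unmatched 0 Gy peaks within 10 kb, where all eligible pairs had 0.626 and 1.31.

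Gained pairs were found in crowded and in empty surroundings alike. With every peak of either list chained to the next within 10 kb, 133 gained pairs (27.4%) lay in regions of at least 20 peaks, as did 27.3% of all eligible pairs. A gained pair had no other peak of either list within 10 kb in 80 cases (16.5%, interval 13.4 to 20.02), against 12.9% of all eligible pairs (interval 12.4 to 13.4). Gained pairs fell in 464 regions. In 291 of these (62.7%, interval 58.2 to 67.0) the length covered by peaks was greater at 5 Gy, against 46.1% of all regions with an eligible pair. The covered length includes the gained pairs themselves, of which 78.0% had the longer peak at 5 Gy. The difference therefore follows in part from the set, and the surroundings alone were not measured. A lost pair lay in 85 of the 307 gained regions that had at least 2 eligible pairs (27.7%, interval 22.98 to 32.9), against 30.4% of all regions with at least 2 eligible pairs. The interval of the first share includes the second. The 2 shares do not have like chances, since a gained region holds at least 1 eligible pair that cannot be lost. Regions were also not matched for their number of eligible pairs.

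The region with the most gained pairs lay on chromosome 17 from 62538264 to 62659165, with 6 gained pairs among 17 eligible ones. Its 49 peaks at 5 Gy covered 54.2 kb, and its 51 peaks at 0 Gy covered 38.3 kb. The largest ratio there, 9.44, was that of the peak from 62576649 to 62577845, with 958.40 at 5 Gy and 101.48 at 0 Gy. Among the 6, the highest scores were those of the peak from 62589523 to 62592598, with 1473.31 at 5 Gy and 456.09 at 0 Gy. The other 4 gained peaks had 5 Gy scores between 212.79 and 602.04 and 0 Gy scores between 66.40 and 126.52.

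All 6 gained pairs of that region lay in its left and middle parts. Among its 11 other eligible pairs the ratio ran from 0.366 to 2.77 with a median of 1.49, and 7 were above 1. The first peak of the region, from 62538264 to 62542109, was strong at both doses, with 2641.39 at 5 Gy and 1774.86 at 0 Gy. At the right end the order was reversed. More than 110 kb from the left end, a limit chosen after the values were seen, there was 1 peak with a score of 131.88 at 5 Gy, against 7 peaks scoring up to 909.93 at 0 Gy.

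**Figure D4:**
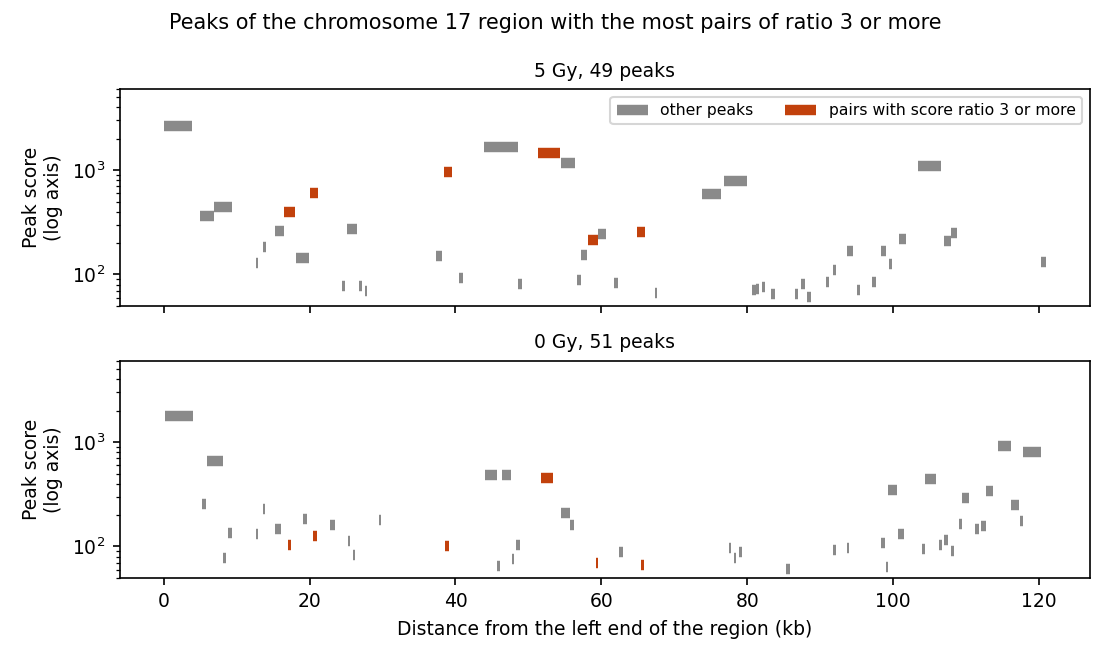
Peaks of the chromosome 17 region (62538264 to 62659165) at 5 Gy in the upper panel and 0 Gy in the lower panel; the horizontal axis is the distance from the left end in kb, each bar spans a peak, and its height on the logarithmic axis is the peak score. The 6 gained pairs score 212.79 to 1473.31 at 5 Gy and 66.40 to 456.09 at 0 Gy, and 7 peaks at the right end at 0 Gy face 1 at 5 Gy.

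The second group of 3 gained pairs lay on chromosome 20 between 39617133 and 39624489, where no other eligible pair was found. The first peak scored 471.80 at 5 Gy and 90.10 at 0 Gy. The second, directly after it, scored 307.24 at 5 Gy and 94.98 at 0 Gy. The third scored 855.83 at 5 Gy and 137.24 at 0 Gy. The stretch held 5 peaks covering 7.06 kb at 5 Gy and 6 peaks covering 3.44 kb at 0 Gy.

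Groups of 2 gained pairs included both uniform and mixed stretches. On chromosome 7, the peak from 100780616 to 100782569 scored 1019.09 at 5 Gy and 263.78 at 0 Gy, and its neighbour from 100775097 to 100775404 scored 503.69 at 5 Gy and 116.20 at 0 Gy. The larger covered 1954 bp at 5 Gy and 1894 bp at 0 Gy, and the smaller 308 bp at 5 Gy and 244 bp at 0 Gy. Their surroundings were mixed. Each had 3 other eligible pairs within 10 kb, with a median ratio of 0.572, and only the other gained pair was above 1. On chromosome 12, peaks at 99038954 to 99039824 and 99041914 to 99042778 scored 830.49 and 199.98 at 5 Gy, against 171.42 and 63.61 at 0 Gy. Another gained peak followed in the same region, from 99059121 to 99059605, with 222.43 at 5 Gy and 72.94 at 0 Gy.

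On chromosome 2, the peak from 29136764 to 29137226 scored 992.28 at 5 Gy and 194.65 at 0 Gy, and a second from 29144142 to 29144921 scored 236.21 at 5 Gy and 76.94 at 0 Gy. These were 2 of 5 eligible pairs in the stretch, whose median ratio was 1.64. Further groups of 2 lay on chromosome 17 between 62554817 and 62559362, within the region described above, on chromosome 7 between 128171407 and 128174975, and on chromosome 8 between 124356456 and 124358575. In these last 2 stretches the 5 Gy scores ran from 325.41 to 543.80 and the 0 Gy scores from 79.25 to 114.01.

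Over the 22 autosomes and X the share of gained pairs ranged around the genome-wide 2.80%, with an interval that included it on 19 chromosomes. It was highest on chromosome 8 (4.33%, 27 of 623 eligible pairs, interval 2.995 to 6.23) and chromosome 5 (4.02%, 42 of 1044, interval 2.99 to 5.39). It was lowest on chromosome 21, where none of 140 eligible pairs was gained, which allows a share of up to 2.14% by a limit of 3 counts and 2.67% by the Wilson interval, and low on chromosome 1 (1.97%, 36 of 1824, interval 1.43 to 2.72). The intervals of these 4 of the 23 chromosomes did not include 2.80%, 2 lying above it and 2 below. No test over chromosomes was made. Chromosome 8 also had the highest median ratio over all its eligible pairs, 0.884, and chromosome 21 the lowest, 0.737.

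**Figure D5:**
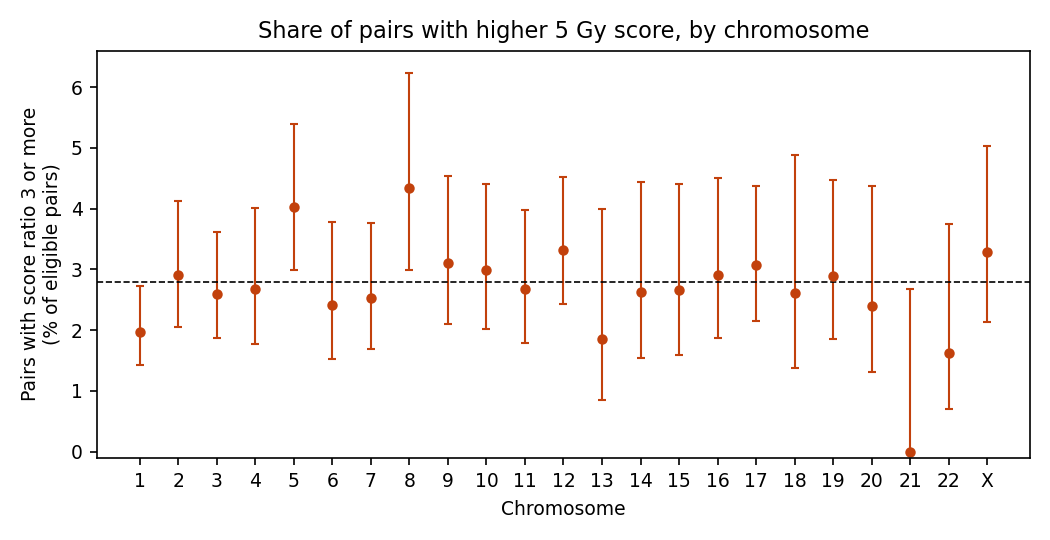
Percentage of eligible pairs that were gained on each of 23 chromosomes, with 95% Wilson intervals; the dashed line is the genome-wide 2.80%. Most intervals cross the line; chromosomes 5 and 8 lie above it and chromosomes 1 and 21 below.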

How the data were processed

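HuR and IgG immunoprecipitates of WS1 fibroblasts at 5 Gy and 0 Gy were sequenced. The submitters' processing notes name cutadapt 1.9.1, Bowtie2 2.2.4 and hg19. Peak names begin with MACS, whose version is not given in the sources here. The deposited unit is a peak score per row of each list. Nothing normalizes the score between lists.

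Peaks were paired in Python 3.11.15 with numpy 2.4.6 and pandas 2.3.3, strand ignored. Shares have Wilson 95% intervals (statsmodels 0.14.6) and medians intervals from binomial order statistics (scipy 1.17.1). These treat pairs as independent. Distances are gaps between the spans of 2 pairs. Pairing was checked on simulated lists with known gains. The simulated peaks were 0 Gy peaks with slightly trimmed ends, so that simulation did not cover fused, split or much lengthened peaks.

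The regions named were the 10 highest ratios, the 10 highest 5 Gy scores, the 5 highest 0 Gy scores, the 5 longest, the extremes of length ratio, the pairs next to the threshold and the 10 largest groups. The members, measures and rules were chosen with earlier results of these data known. Gene, region class and sequence counts had been planned and were not run.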

Additional observations from a re-analysis of the deposited data

How the results depend on the processing

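With 9 alternative settings, 53 values of 7 results were recomputed. Of these, 17 lay inside the interval around the value reported (for the number of gained pairs, within 1.5 times) and 36 were outside. Several settings change which pairs count as gained, so part of these shifts follows from the definition. How large that part is was not measured. The number of gained pairs (486) was 1473 at a score ratio of 2, 81 at a ratio of 5, 899 with 5 Gy scores divided by the median ratio, 318 with at least 50% of each peak overlapped, 217 with both scores at least 100 and 2148 when every overlapping couple was counted. In the same order of settings, gained pairs as a percentage of eligible pairs (2.80%) were 8.49%, 0.467%, 5.18%, 2.18%, 1.90% and 7.88%. Gained pairs per lost pair (0.27) were 0.346, 0.188, 0.893, 0.219, 0.219 and 0.619, and 0.306 with both scores under 1000. They stayed under 1 throughout. The median length ratio (1.26) was 1.43 at a ratio of 5, 1.08 with 50% overlap, 1.103 with scores of at least 100 and 3.56 for every couple. The percentage with the longer peak at 5 Gy (78.0%) was 68.6% with 50% overlap, 71.0% with scores of at least 100 and 93.7% for every couple. The percentage with another gained pair within 10 kb (5.76%) was 13.8% at a ratio of 2, 9.45% with scaled scores, 1.89% with 50% overlap, 3.69% with scores of at least 100 and 52.9% for every couple. It was 2.47% within 2 kb and 9.47% within 50 kb. The median ratio of neighbouring pairs (0.893) was 1.102 at a ratio of 5, 1.11 for every couple and 0.999 within 2 kb. Couples share peaks, so a fused peak counts several times, and its couples count as neighbours of each other. No paired analysis was possible because a single library stands for each group. Read depth, which the lists do not give, limits every comparison of scores between the lists.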

Other observations

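The limit of 3000 kept 2404 pairs out of the set, of which 1709 scored at least 3000 at both doses, 148 at 5 Gy alone and 547 at 0 Gy alone. Of the 148, 7 scored under 1000 at 0 Gy, while 28 pairs with at least 3000 at 0 Gy scored under 1000 at 5 Gy. Of the 7, 2 lay close together on chromosome 5. The peak from 54273617 to 54275299 scored 3100 at 5 Gy and 805.41 at 0 Gy. The peak from 54281005 to 54281801 scored 3100 at 5 Gy and 638.62 at 0 Gy. On chromosome 19, the peak from 55875730 to 55877553 scored 3100 at 5 Gy and 658.18 at 0 Gy, over 1824 and 1809 bp. On chromosome 11, the peak from 65266313 to 65274968 scored 3224.03 at 5 Gy over 8656 bp and 841.84 at 0 Gy over 6702 bp. Since 3100 is a tied value in both lists, the ratios of the pairs at 3100 are not resolved, and how scores above 3100 rank against it is unknown.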
